A study of Mus musculus with 2 samples.

Results

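Reg3a, Reg3b, Reg3g and Dmbt1 are 4 of the 22253 genes in the count table of a single-cell RNA sequencing experiment on mouse intestinal organoids. They were selected on their levels across cell classes and cultures in these same data, so those levels are given as a description; the 4 were taken by gene symbol and all had counts. The cells came from 5 organoid cultures of the distal small intestine, 3 labelled Etv1 mutant and 2 labelled control. Every culture carried the Neurog3-RFP;Gcg-Venus genotype, a pair of fluorescent reporters for endocrine progenitors and for Gcg-expressing cells. The labels call the cultures biological replicates and do not state the kind of Etv1 mutation, the sort gate or the culture conditions. Cells were sorted, tagged per culture with a hashtag antibody, pooled and sequenced together, so the culture of a cell was read from its hashtag counts.

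The Reg3 genes encode small secreted C-type lectins, which are released by the intestinal epithelium into the mucus. Mouse Reg3b and Reg3g proteins kill or hold back bacteria, and both genes are known to be induced in the epithelium by microbial signals and by the cytokine IL-22 acting through STAT3. Reg3a is the less studied mouse paralog. Dmbt1 encodes a large secreted glycoprotein built from scavenger-receptor cysteine-rich domains, which binds bacteria and viruses at mucosal surfaces.

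In the mm10 genome (GENCODE vM21) the Reg3 genes lie on chromosome 6. Reg3b occupies chr6:78370657-78373466 on the plus strand, Reg3a occupies chr6:78380709-78383827 on the plus strand, and Reg3g occupies chr6:78466269-78468872 on the minus strand. Together with Reg3d they span 98.2 kb. Dmbt1 occupies chr7:131032053-131121630 on the plus strand. Because the Reg3 genes are paralogs, their transcripts were compared by every run of 31 bases. Reg3b and Reg3g transcripts shared 5 such runs, which may overlap each other, and no other pair among the 4 genes shared any. Aligned transcript identity was 76.8% for Reg3b against Reg3g and 77.4% for Reg3a against Reg3b. No count of any of the 4 genes in any barcode was a fraction, whereas Lyz1, which has a near-identical paralog, had 44 fractional values.

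The promoters of the 3 Reg3 genes are shown because these genes shared a cell class but not a pattern outside it. RefSeq (GRCm38.p6, the mm10 assembly) had an entry for 3 of the 4 genes. The windows searched are the 250 bases before each RefSeq start, 5′ to 3′ on the strand of the gene: chr6:78370635-78370884 for Reg3b, chr6:78380459-78380708 for Reg3a and chr6:78468875-78469124, minus strand, for Reg3g. The annotations differ for Reg3b: 2 GENCODE exons of Reg3b begin inside its window, upstream of the RefSeq start, so part of the window lies in the gene as GENCODE places it. The Reg3b sequence is shown for its last 178 bases, chr6:78370707-78370884, which leave out the first of those exons. Capitals mark matches, on either strand, to the letters TTCNNNGAA (a STAT-type motif), TTTATG (a CDX-type motif) or TATAAA (the TATA box).
Reg3b: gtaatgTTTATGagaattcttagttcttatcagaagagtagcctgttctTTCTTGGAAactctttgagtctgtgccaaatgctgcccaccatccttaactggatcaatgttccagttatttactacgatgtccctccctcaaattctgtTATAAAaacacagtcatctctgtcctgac
Reg3a: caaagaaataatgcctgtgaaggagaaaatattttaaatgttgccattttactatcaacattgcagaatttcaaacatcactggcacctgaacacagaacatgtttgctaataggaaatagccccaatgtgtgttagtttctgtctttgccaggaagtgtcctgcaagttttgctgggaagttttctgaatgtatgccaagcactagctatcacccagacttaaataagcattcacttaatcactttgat
Reg3g: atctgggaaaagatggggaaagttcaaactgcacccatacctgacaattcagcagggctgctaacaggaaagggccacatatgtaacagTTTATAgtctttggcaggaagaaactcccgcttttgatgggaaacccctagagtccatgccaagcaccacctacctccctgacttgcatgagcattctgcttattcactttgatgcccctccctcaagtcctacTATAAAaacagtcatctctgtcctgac
The Reg3b window held TTTATG, TTCTTGGAA beginning 129 bases before the start, and TATAAA beginning 29 bases before it. The Reg3g window held TATAAA 27 bases before the start and, read from the other strand, TTTATA 161 bases before it. The Reg3a window held no match. Of 32851 RefSeq promoters searched over the same length, 7.02% held TTCNNNGAA, 10.8% held TTTATG and 12.4% held TATAAA. The Reg3b and Reg3g windows were 71.1% identical over 246 aligned bases and ended in the same 20 bases. Reg3a and Reg3g windows were 77.3% identical over 198 aligned bases, and those of Reg3a and Reg3b 62.6% over 219. No overlap between matches occurred. A match is a description of the letters, and binding was not measured.

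Of 3409 barcodes, 2725 passed the cell filter and 1432 of these carried the hashtag of 1 culture. The mutant cultures had 282, 281 and 197 cells and the control cultures 323 and 349. Summed counts of unique molecular identifiers (UMIs, one per captured transcript) ranged between 4193197 and 7254380 per culture, with medians of 20842 to 24126 per cell. Etv1 itself had 20, 20 and 13 counts in the mutant cultures, against 45 and 44 in the control cultures. Nearly all of them lay in enteroendocrine-like cells, with 17, 18 and 13 counts in 8, 9 and 8 such cells of the mutant cultures and 43 and 44 counts in 16 and 14 such cells of the control cultures. Per UMI of that class Etv1 stood at 141, 205.4 and 146 CPM in the mutant cultures, against 204.6 and 271 CPM in the control cultures, and the groups overlapped. Epithelial markers were at 5774 to 6175 CPM (counts scaled to a total of 1000000) in mutant cultures and 5942 to 6174 CPM in control cultures. Of 6 mesenchymal markers 5 had no count, and the immune markers summed to 1.25 to 2.40 CPM in mutant cultures and 1.07 to 1.49 CPM in control cultures. The groups did not overlap for the summed Paneth markers, at 911 to 2111 CPM in mutant and 2343 to 5999 CPM in control cultures. The same held for the enteroendocrine markers, at 196 to 432 CPM in mutant and 491 to 748 CPM in control cultures. Enterocyte markers went the other way without overlap, at 1010 to 1260 CPM in mutant and 701 to 961 CPM in control cultures. Mesenchymal markers were at 0.306 to 1.44 CPM in mutant and 3.29 to 5.24 CPM in control cultures, without overlap. Neuronal and glial markers were at 1.60 to 3.10 CPM in mutant and 3.45 to 4.86 CPM in control cultures, also without overlap. Of all single genes tested over all cells, 17.0% had groups without overlap. One mutant culture, replicate 2, stood apart in its share of enterocyte-like cells, at 10.3%, against 4.61% and 4.57% in the other mutant cultures and 5.57% and 3.72% in the control cultures.

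Clustering gave 10 groups of cells, and the marker lists named 6 of them. The enterocyte-like class (82 cells) was led by Apoa1, Reg3b, Apoc3 and Reg3a and raised 11 of 12 enterocyte markers. Cluster 1 (155 cells) stayed unnamed: it was led by Lgals3, F3 and Il1rn, and raised 7 of 12 enterocyte markers and 5 of 9 markers of injured or fetal-like epithelium. Cluster 2 (191 cells), led by Atf5 and Phlda2, matched no marker list. Clusters 6 and 9 also stayed unnamed and had low depth, with medians of 5863 and 1344 UMIs. Since the clusters were built from the same cells, the levels across them below are a description without a test, as mean ± SD over the 5 cultures in CPM of the class. The kit and the read position are not given in the sources used here, so levels are compared within a gene and not between genes.

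Reg3a had its counts in few classes. In enterocyte-like cells it stood at 301, 289 and 428 CPM in the mutant cultures, against 284 and 364 CPM in the control cultures, a mean of 333 ± 62.0 CPM (SD, n = 5). This class held 80.3% of all Reg3a counts with 6.14% of all UMIs. Cluster 1 followed with 84.3, 26.0 and 9.81 CPM in the mutant cultures and 17.3 and 27.0 CPM in the control cultures, and its range did not overlap that of the enterocyte-like class. All other classes were at or near 0: the cycling G2/M-like, stem-like and cluster 2 cells together gave 4, 2 and 1 counts, and the remaining 5 classes gave none. A count of 0 in the goblet/Paneth-like class allowed up to 1.48 CPM, and in the enteroendocrine-like class up to 4.48 CPM, taking 3 counts as the limit.

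Reg3b reached its highest level in the same class. Enterocyte-like cells had 5837, 5342 and 2398 CPM in the mutant cultures, against 4208 and 1089 CPM in the control cultures, and held 88.1% of all Reg3b counts. Its mean there was 3775 ± 2000.3 CPM (SD, n = 5), so cultures differed by far more than for Reg3a. Cluster 1 had 303, 390 and 194 CPM in the mutant cultures, against 37.3 and 204 CPM in the control cultures. The enterocyte-like range lay wholly above that of cluster 1. Cluster 1 was above the next class, the low-depth cluster 9, in 5 of 5 cultures, although their ranges overlapped. The lowest cluster 1 culture, at 37.3 CPM, was above every culture of the remaining classes, of which the highest was 33.7 CPM (enteroendocrine-like). Further down the order the ranges of neighbours overlapped. The 8 classes below cluster 1 averaged between 5.23 ± 1.60 CPM (stem-like) and 60.0 ± 52.0 CPM (cluster 9), and enteroendocrine-like cells averaged 18.1 ± 14.2 CPM.

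Reg3g was spread more widely. Enterocyte-like cells had 3569, 5156 and 6503 CPM in the mutant cultures, against 4352 and 1230.0 CPM in the control cultures, and held 49.7% of all Reg3g counts. Cluster 1 had 1218, 2354 and 700.4 CPM in the mutant cultures and 936 and 853 CPM in the control cultures, and held a further 31.4%. The enterocyte-like class was higher than cluster 1 in each of the 5 cultures, although the ranges overlapped. In stem-like cells Reg3g was at 108, 114 and 110.4 CPM in the mutant cultures, against 93.6 and 88.9 CPM in the control cultures. Cycling G2/M-like cells averaged 145 ± 52.7 CPM, cycling S-like cells 113 ± 35.4 CPM and cluster 2 cells 180 ± 141 CPM, and neighbours in this order overlapped. The lowest class was the enteroendocrine-like one, at 45.5 ± 15.8 CPM.

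Free RNA can give counts in cells that do not transcribe a gene, and its level was not measured here. The low-level classes were set beside the enteroendocrine-like cells, which are themselves the class lowest in Reg3g. The low-depth clusters 9 and 6 had Reg3g at 149 ± 74.5 and 108 ± 34.2 CPM, against 103 ± 11.1 CPM in stem-like cells. Of the filtered barcodes with no hashtag, a group of 389 with a median of 1233 UMIs had 239 CPM of Reg3g and 131 CPM of Reg3b. The part of free RNA in these levels was not tested. Each cell with at least 3832 UMIs, the 10th percentile of depth, was thinned to that number in a single random draw. Cells below it were left out, and the share of the thinned cells that kept a Reg3g count was taken. That share was 31.3% of 265 stem-like cells (exact binomial 95% interval 25.8 to 37.3%) and 11.8% of 51 enteroendocrine-like cells (4.44 to 23.9%); the intervals pool cells of 5 cultures and cover counting error only. Unthinned, it was 74.3% at a median of 20928 UMIs and 36.4% at a median of 9800 UMIs. In CPM, stem-like cells were above enteroendocrine-like cells in 5 of 5 cultures and the ranges did not overlap; the same held for cycling G2/M-like cells. For Reg3b the thinned shares were 1.89% (0.615 to 4.35%) of stem-like and 1.96% (0.0496 to 10.4%) of enteroendocrine-like cells, and the intervals overlapped.

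The balance of Reg3b and Reg3g counts differed between classes. Reg3b made up 49.5% of the combined counts in enterocyte-like cells (Wilson 95% interval 48.7 to 50.2%) and 14.8% in cluster 1 (13.9 to 15.7%). In stem-like cells it made up 5.02% (3.54 to 7.07%), in cycling G2/M-like cells 3.40% (2.49 to 4.63%) and in cluster 2 cells 4.48% (3.24 to 6.17%). The enteroendocrine-like cells, with 12 Reg3b and 33 Reg3g counts, stood at 26.7% (16.0 to 41.0%), and the low-depth clusters 9 and 6 at 24.6% (15.5 to 36.7%) and 16.4% (11.4 to 22.9%). By culture, enterocyte-like cells ranged between 26.9% and 62.1%, cluster 1 between 3.84% and 21.7%, and stem-like cells between 2.34% and 6.72%. These ranges did not overlap except between cluster 1 and stem-like cells. In control culture 1, cluster 1 (3.84%) was below stem-like cells (6.72%). Enteroendocrine-like cells ranged between 0% and 60%, cluster 9 between 0% and 44.4% and cluster 6 between 11.1% and 25.8%. The Wilson intervals cover counting error only.

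**Figure D1:**
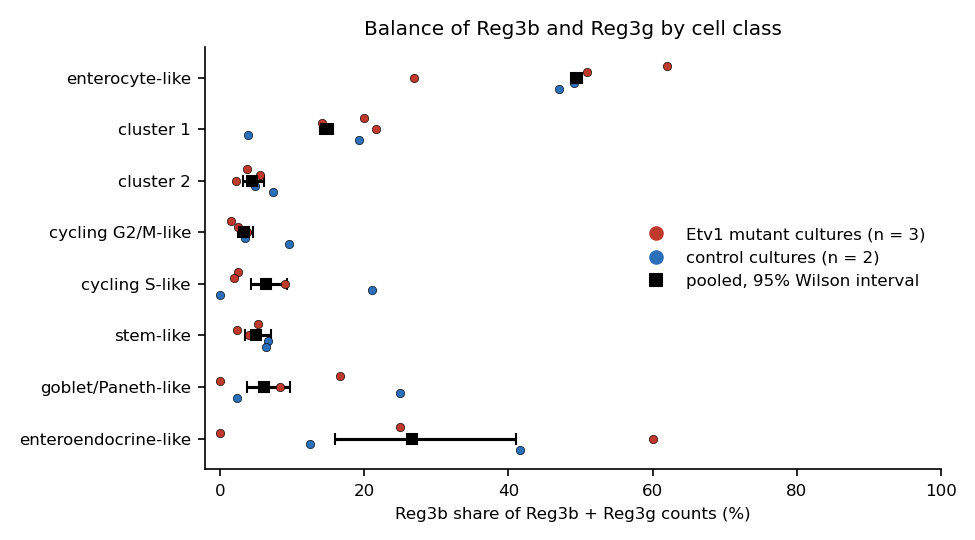
Share of Reg3b among the summed Reg3b and Reg3g counts (x axis, percent) in 8 cell classes (y axis). Squares give the pooled share with its 95% Wilson interval and circles give the 3 Etv1 mutant and 2 control cultures; the enterocyte-like class lies at 49.5%, cluster 1 at 14.8% and stem-like cells at 5.02%.

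Dmbt1 followed another order. Its highest mean was in cluster 1, with 15.2, 65.9 and 37.3 CPM in the mutant cultures, against 27.3 and 27.0 CPM in the control cultures. Cluster 2 had 20.03, 72.2 and 19.9 CPM in the mutant cultures, against 4.40 and 12.5 CPM in the control cultures. The low-depth cluster 6 averaged 17.0 ± 21.0 CPM from 22 counts. In cycling G2/M-like cells it stood at 20.02, 18.4 and 14.5 CPM in the mutant cultures and 5.31 and 8.54 CPM in the control cultures. Cluster 1, cluster 2 and cycling G2/M-like cells held 35.8%, 23.5% and 25% of the 408 Dmbt1 counts. Enterocyte-like cells, where the Reg3 genes were highest, held 2.70% of them, with 11 counts in 6 of 82 cells and a mean of 6.24 ± 6.70 CPM. Stem-like cells averaged 2.19 ± 2.14 CPM, goblet/Paneth-like cells had 3 counts in 106 cells, and enteroendocrine-like cells had none, which allows up to 4.48 CPM. The ranges of all neighbours in the Dmbt1 order overlapped, and the counts were few. Cycling G2/M-like cells were above enterocyte-like cells in 5 of 5 cultures. In the other pairs of neighbours the upper class was higher in 1 to 4 cultures.

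**Figure D2:**
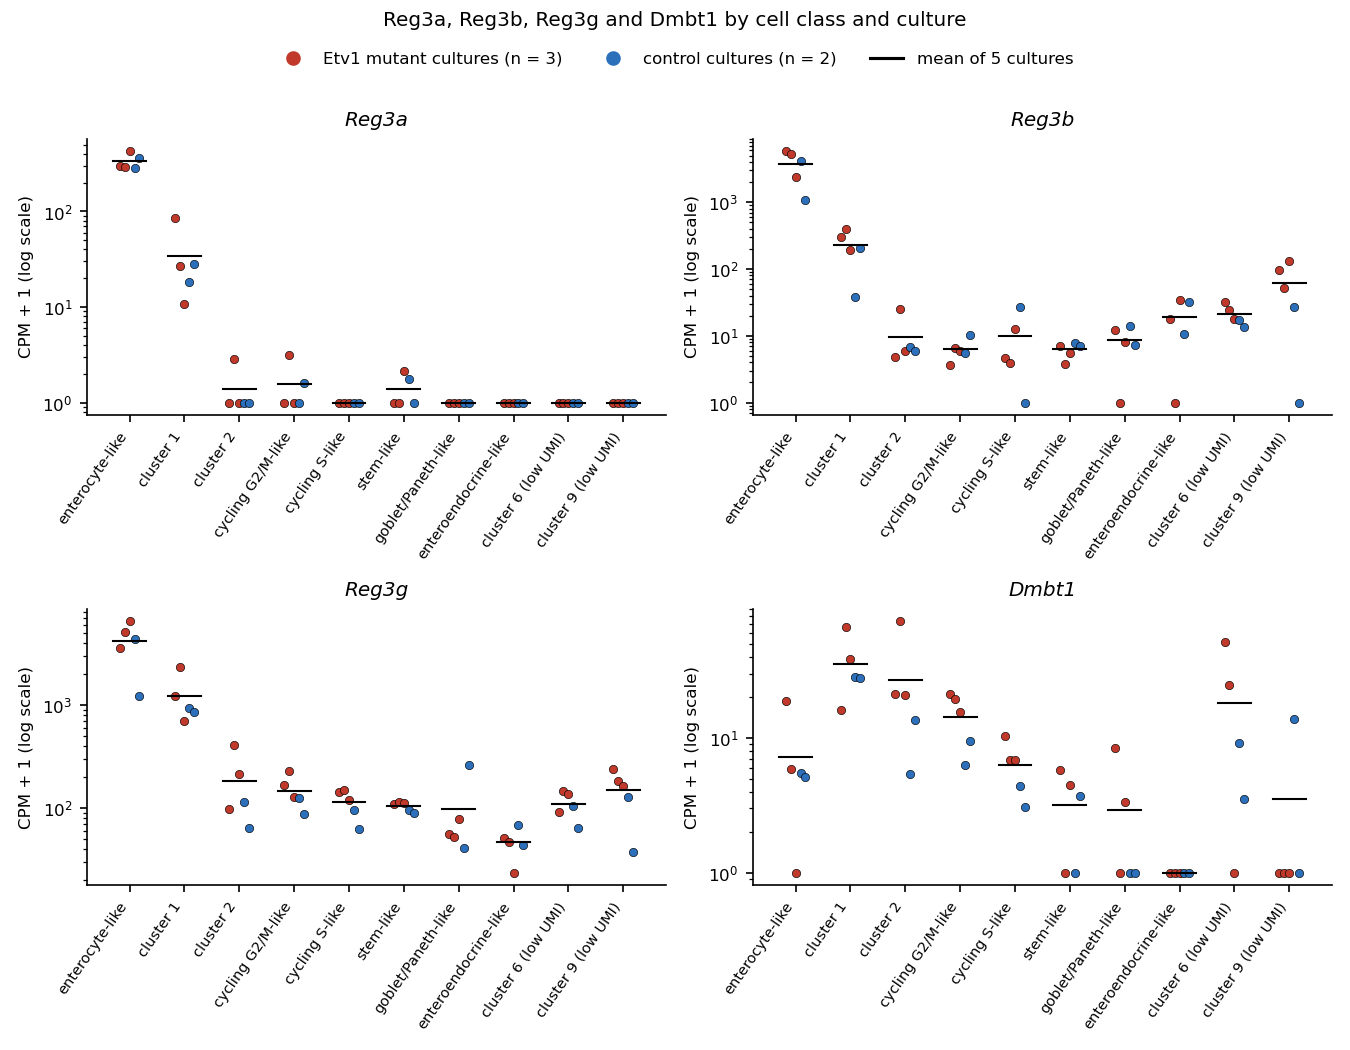
Level of each gene (y axis, CPM + 1, log scale) in 10 cell classes (x axis). Circles are the 3 Etv1 mutant and 2 control cultures and lines are the means of 5 cultures; Reg3a, Reg3b and Reg3g peak in enterocyte-like cells, at means of 333, 3775 and 4162 CPM, and Dmbt1 peaks in cluster 1 and cluster 2, at means of 34.5 and 25.8 CPM.

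Since Reg3b and Reg3a helped to define the enterocyte-like class, the clustering was repeated without the 4 genes. It gave an enterocyte-like class of 106 cells that included all 82, with 258 ± 75.7 CPM of Reg3a, 2732 ± 1607 CPM of Reg3b and 3465 ± 1876 CPM of Reg3g. Cluster 1 came apart into 37 injury-like cells, led by Ly6d and Sprr1a, and 90 cells led by Slc11a2 and St3gal4, with 24 cells joining the enterocyte-like class. The Slc11a2-led cells raised 5 of 12 enterocyte markers, none in their top 10 genes, and held 32.1% of all Dmbt1 counts. Their Dmbt1 level was 34.4, 81.2 and 51.1 CPM in the mutant cultures, against 35.5 and 54.99 CPM in the control cultures. Injury-like cells had 3 Dmbt1 counts and enterocyte-like cells 6.49 ± 5.78 CPM, both below the Slc11a2-led cells in each culture.

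The order along enterocyte markers was then read without clusters. The 1161 cells outside the low-depth clusters were divided into 10 bins of near-equal size by the summed level of 12 enterocyte markers, a list that holds none of the 4 genes. Reg3a, Reg3b and Reg3g were highest in bin 10, the top bin, in 5 of 5 cultures, at 255 ± 45.9, 2896 ± 1904 and 3424 ± 1640.3 CPM (SD, n = 5). In bin 9 they were at 36.0 ± 22.1, 294 ± 237 and 1254 ± 716 CPM. Dmbt1 was highest on average in bin 9, at 39.4 ± 13.6 CPM, and was at 7.68 ± 6.996 CPM in bin 10. By culture, its highest bin was 9 in mutant culture 3 and both control cultures, 8 in mutant culture 2 and 3 in mutant culture 1. Bin 10 was below bin 9 in 5 of 5 cultures for Dmbt1 and in 0 of 5 for each Reg3 gene.

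**Figure D3:**
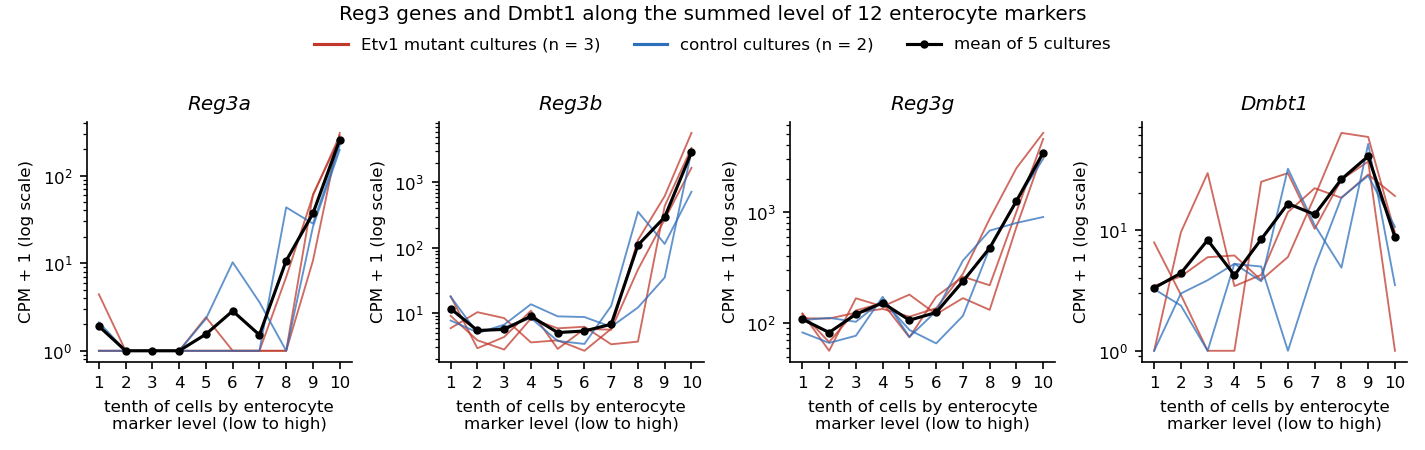
Level of each gene (y axis, CPM + 1, log scale) in 10 bins of the cells ordered by the summed level of 12 enterocyte markers (x axis, low to high). Coloured lines are the 3 Etv1 mutant and 2 control cultures and the black line is their mean; the Reg3 genes are highest in bin 10, while Dmbt1 averages 7.68 CPM there and 39.4 CPM in bin 9.

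Within the enterocyte-like class the Reg3 genes were unevenly held. Reg3b counts per cell ran from 0 in 20 cells through a median of 16.5 to 1011, and 20 cells had 100 counts or more. Reg3g ran from 0 in 7 cells through a median of 45.5 to 540. Reg3a ran from 0 in 19 cells through a median of 3.5 to 42. All 62 cells with a Reg3b count also had Reg3g, and 53 of them had Reg3a. Across these 82 cells Pearson's r was 0.73 between Reg3b and Reg3g, 0.48 between Reg3a and Reg3b and 0.41 between Reg3a and Reg3g; the cells share a library and differ in depth, so these are descriptions.

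Few cells carried most of the Reg3a and Reg3b message. Over all 1432 cells, 50% of the counts lay in 13 cells for Reg3a, 8 for Reg3b, 34 for Reg3g and 31 for Dmbt1. Of the 20 richest cells, 17, 20 and 17 were enterocyte-like for Reg3a, Reg3b and Reg3g, and 0 for Dmbt1, for which 9 lay in cluster 1. The single richest cell gave 46.2% of the Reg3b counts of mutant culture 1 and 42.2% of those of control culture 1. A culture's Reg3b value can therefore rest on 1 cell.

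The genes most like each member were ranked by Pearson's r of log2(CPM + 10) over 45 sums of a class in a culture, among 11707 genes. These sums share classes and cultures and are not independent. Reg3a was most like Alpi (r = 0.98), the intestinal alkaline phosphatase of the brush border, followed by Slc7a9, Cyp2c66, Slc13a2 and Nat8f5. Reg3b was most like Slc26a6 (r = 0.92), an anion exchanger, then 2010106E10Rik, Apoc3, Mttp and Reg3a. Reg3g was most like Akr1c19 (r = 0.95), then Cyb5a, Chp2, Ugt2b5 and Ckmt1. Dmbt1 had looser partners, led by Vstm2l (r = 0.78) and Nars (r = 0.71), then Itih5, Dgka and Pycard, the adaptor of inflammasomes. Vstm2l reached at most 11.8 CPM in these sums, close to the 10 CPM added before the log. The r of Dmbt1 with Reg3a was 0.17, with Reg3b 0.20 and with Reg3g 0.42.

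The design compares Etv1 mutant with control cultures. Over all cells none of the 4 genes passed the edgeR quasi-likelihood test with Benjamini-Hochberg adjustment over 11061 genes; 1 gene, the enteroendocrine hormone gene Pyy, did, a background of 0.00904%. Fewer cells of a type and less RNA per cell cannot be told apart in such sums. Reg3a was at 22.5, 41.0 and 20.03 CPM in the mutant cultures, against 20.1 and 15.3 CPM in the control cultures, a log2 fold change of 0.66 ± 0.32 (SE; adjusted p = 1.0). Reg3b was at 259, 738 and 135 CPM in the mutant cultures, against 270.0 and 63.3 CPM in the control cultures (1.17 ± 0.80; adjusted p = 1.0). Reg3g was at 405, 1145 and 483 CPM in the mutant cultures, against 487 and 206 CPM in the control cultures (0.96 ± 0.52; adjusted p = 1.0). For these 3 genes the groups overlapped and mutant culture 2 was the highest of all 5. Without it the log2 fold changes were 0.25, 0.22 and 0.34, and without control culture 1, 0.89, 2.59 and 1.73, with adjusted p of 1.0 each. The 12 enterocyte markers summed to 1010.4 to 1260.2 CPM in the mutant and 701 to 961 CPM in the control cultures, without overlap. Cluster 1 made up 12.4%, 12.5% and 9.64% of cells in the mutant cultures and 11.5% and 8.31% in the control cultures. Without the enterocyte-like cells, a setting chosen after the data were seen, the log2 fold changes were 1.17 for Reg3a, 1.35 for Reg3b, 0.79 for Reg3g and 1.28 for Dmbt1 (edgeR adjusted p = 1.0 each). The part of the other shares in these values was not tested.

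**Figure D4:**
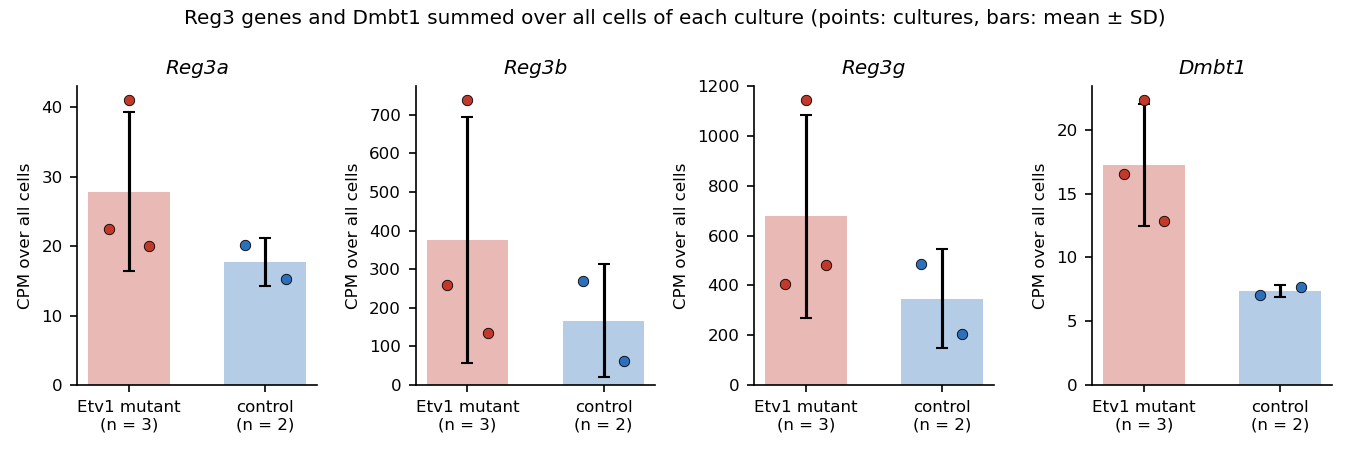
Level of each gene over all cells of a culture (y axis, CPM) in Etv1 mutant and control cultures (x axis). Circles are cultures and bars are means with SD; only for Dmbt1 do the 3 mutant cultures (12.9 to 22.3 CPM) lie above both control cultures (7.03 and 7.71 CPM).

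Dmbt1 was the 1 member whose groups did not overlap. It stood at 16.5, 22.3 and 12.9 CPM in the mutant cultures, against 7.03 and 7.71 CPM in the control cultures, with 103, 146 and 54 counts in mutant and 51 and 54 in control cultures. EdgeR put the difference at 1.24 ± 0.25 on the log2 scale (SE; adjusted p = 1.0), rank 12 by p among 11061 genes. The low-depth cluster 9 made up 7.83 ± 1.52% of cells in the mutant cultures and 3.26 ± 0.664% in the control cultures (SD, n = 3 and 2), and cluster 6, led in part by mitochondrial genes, 10.9 ± 2.30% in the mutant cultures and 15.5 ± 1.69% in the control cultures, both without overlap. These clusters held 0.245% and 5.39% of the Dmbt1 counts, and their part in the difference was not tested. Of all genes tested, 9.15% had every mutant culture above both control cultures, and the Dmbt1 order is to be read against that share. Thinning to 3832 UMIs left out the cells below that depth: 39, 32 and 21 in the mutant cultures, against 21 and 31 in the control cultures. Of the other cells, 6.996%, 6.83% and 3.98% in the mutant cultures kept a Dmbt1 count, against 0.662% and 0.629% in the control cultures. The thinning was a single random draw, and these control shares rest on very few cells. The two-sided exact permutation test over 10 splits gave p = 0.1, the smallest it allows; unthinned shares of 13.8%, 17.1% and 10.7% against 8.98% and 5.16% gave p = 0.2. With at least 3 UMIs asked of a thinned cell, the shares were 0.823%, 0.402% and 0% in the mutant cultures, against 0% in both control cultures (exact p = 0.4). For the Reg3 genes the thinned shares overlapped: mutant and control cultures averaged 4.87% and 3.41% for Reg3a (exact p = 0.4), 10.7% and 8.61% for Reg3b (exact p = 0.9), and 40.5% and 30.96% for Reg3g (exact p = 0.4).

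Within classes, 7 had at least 10 cells in every culture, and 12 of 28 pairs of a gene and a class had enough counts to test. None of the 12 passed the edgeR test, nor did any by DESeq2, 7 had an unadjusted p under 0.05, and 11 of the log2 fold changes were above 0. Over all genes tested in these classes, 2.43% to 6.41% had such a p and 48.7% to 50.8% a value above 0; the 12 pairs share the same 5 cultures. Reg3g had every mutant culture above both control cultures in cycling G2/M-like, cycling S-like and stem-like cells, with log2 fold changes of 0.74 ± 0.20, 0.78 ± 0.21 and 0.22 ± 0.14 (SE; adjusted p = 1.0, 0.578 and 0.925). The shares of all genes with that order in these classes were 9.66%, 10.4% and 14.1%, and the shares called were 0.0239%, 0.0179% and 0.0385%. Outside the enterocyte-like class and cluster 1, Reg3g was at 131, 187 and 139 CPM in the mutant cultures, against 101 and 95.2 CPM in the control cultures. Dmbt1 in the same cells was at 16.7, 16.1 and 9.996 CPM in the mutant cultures, against 3.33 and 5.74 CPM in the control cultures. Reg3b there was at 6.40, 7.85 and 7.997 CPM in the mutant cultures, against 9.45 and 7.22 CPM in the control cultures. The groups overlapped for Reg3b and for Reg3a. This set of cells was not tested, and the share of all genes with every mutant culture above both control cultures was not taken for it.

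For Dmbt1 the groups did not overlap in cycling G2/M-like cells (log2 fold change 1.35 ± 0.34, SE; edgeR adjusted p = 1.0) or in cluster 2 (1.99 ± 0.56; adjusted p = 0.592). In cluster 2, 10% of all genes tested had that order and 0.0134% were called. In cluster 1, where Dmbt1 was highest, the groups overlapped and the log2 fold change was 0.54 ± 0.48 (adjusted p = 1.0); 0% of genes were called there and 7.97% had every mutant culture above both control cultures. Of the mutant counts in cluster 2, 1 cell of culture 2 gave 15 of 39, and the value without the richest cells of each culture was 1.68 (1.04 in cycling G2/M-like cells).

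Cluster 1 gave log2 fold changes of 0.95 ± 0.65 for Reg3a, 1.35 ± 0.53 for Reg3b and 0.65 ± 0.37 for Reg3g (SE; edgeR adjusted p = 1.0 each). Without control culture 1 the Reg3b value was 0.55, and without control culture 2 it was 2.96 (adjusted p = 0.0637). Without mutant culture 2 the Reg3g value was 0.10. In the enterocyte-like class, tested although mutant culture 3 had 9 such cells, the values were 0.04 ± 0.23 for Reg3a, 0.75 ± 0.49 for Reg3b and 0.83 ± 0.42 for Reg3g (adjusted p = 1.0, 0.985 and 0.985), where 0% of genes were called and 9.47% had every mutant culture above both control cultures. Control culture 2 was the lowest of the 5 for both Reg3b and Reg3g in that class; without it their values were 0.08 and 0.18, and without control culture 1 they were 2.07 and 2.05 (adjusted p = 0.624 and 0.252). Reg3g in cluster 2 gave 1.37 ± 0.38 (adjusted p = 0.592) and passed without mutant culture 1 (1.75, adjusted p = 0.0175; 0.121% of genes called). In the low-depth cluster 6, where 0.0675% of genes were called, Reg3g gave 0.48 ± 0.29 (adjusted p = 0.828).

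Goblet/Paneth-like cells were the 1 class with a negative Reg3g value, -1.36 ± 0.52 (SE; edgeR adjusted p = 1.0; 0% of genes called). Reg3g stood there at 55.1, 51.5 and 77.2 CPM in the mutant cultures, against 39.7 and 260 CPM in the control cultures. The high control culture had 166 counts, 97 of them in 1 cell. Without that culture the value turned to 0.42 (adjusted p = 1.0), and without the other control culture it was -2.04 (adjusted p = 0.0024; 0.133% of genes called).

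**Figure D5:**
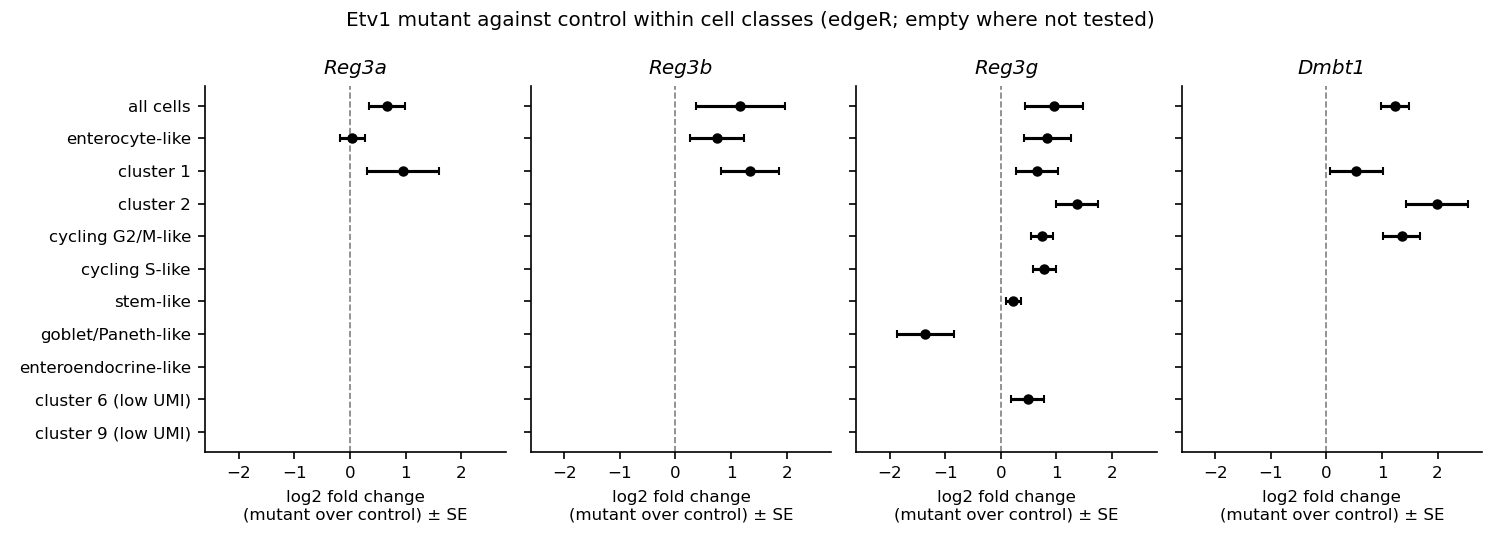
Log2 fold change of Etv1 mutant over control cultures with its SE (x axis) over all cells and within each class (y axis), from edgeR on counts summed per culture (3 mutant, 2 control); classes without a point were not tested. In classes with at least 10 cells in every culture, 11 of 12 points lie above 0, against 48.7% to 50.8% of all genes. None of these points passes the adjusted threshold. The points share the same cultures, and the genes were chosen on their levels in these same data.

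Without the filter on low counts, 5 of these class tests passed: Reg3g in cluster 2, cycling G2/M-like and goblet/Paneth-like cells, Reg3b in cluster 1, and Dmbt1 in cluster 2. Their edgeR adjusted p-values were 3.8e-12, 1.1e-04, 5.7e-05, 9.1e-06 and 3.3e-05. In that setting 0.259% of all genes were called in cluster 2, 0.221% in cycling G2/M-like cells, 0.374% in goblet/Paneth-like cells and 0.406% in cluster 1. DESeq2 on the same sums gave adjusted p = 1.0 for each.

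Other genes of epithelial defence were measured in the same fit over all cells, and 0 of the tested genes in any list passed by edgeR; 1 of the other Reg genes and 1 secreted defence gene had an unadjusted p under 0.05, as did 337 of all 11061 genes. Among the other Reg genes, 2 of 4 were tested: Reg4 had a log2 fold change of -1.21 ± 0.26 (SE; adjusted p = 1.0) and Reg1 -0.75 ± 0.98, with a list median of -0.98, against 0.0047 over all genes. By DESeq2 Reg4 was among the 6 genes called (-1.20, adjusted p = 0.0129). Within classes edgeR gave Reg4 -0.25 ± 0.30 in goblet/Paneth-like cells and -1.09 ± 0.44 in the low-depth cluster 6 (SE). It gave 0.11 ± 0.32 in stem-like cells and 0.09 ± 0.80 in cluster 1, and none of these passed. The enteroendocrine-like class was not tested, nor was the part of cell shares in the value over all cells. The place of Reg4 differed from that of the Reg3 genes. Reg4 was at 2191 CPM in enteroendocrine-like and 1244 CPM in goblet/Paneth-like cells and at 5.22 CPM in enterocyte-like cells. Reg1 was highest in enterocyte-like cells, at 10.4 CPM, with 0.969 CPM in cluster 1. Reg3d had 3 counts in all and a level above 0 only in enterocyte-like cells, at 1.57 CPM. Reg2 had 15 counts.

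Genes of the IL-22 and gp130 receptors and of STAT3 signalling were 8 of 12 tested, 4 above and 4 below 0, with a median of -0.01. Those with the smallest p were Pias3 (0.48 ± 0.30), Socs3 (0.39 ± 0.34), a feedback inhibitor induced by STAT3, and Stat3 itself (-0.17 ± 0.16). Il22ra1, the epithelial IL-22 receptor chain, had 16 counts in all cells. In the list of inducible and secreted defence genes 14 of 25 were tested, 9 above and 5 below 0, with a median of 0.09. Zg16, a goblet cell lectin, was at -3.25 ± 0.98, with 1.76, 4.13 and 2.62 CPM in the mutant cultures, against 3.86 and 51.7 CPM in the control cultures. Without control culture 2 its value was -0.46 (adjusted p = 1.0), and without control culture 1 it passed (-4.15, adjusted p = 0.0130). Ccl20, a chemokine, was at 0.93 ± 0.49 and Il18 at 0.73 ± 0.39. Microbial sensing genes split 8 and 8 among 16 tested of 21, with a median of -0.01. Nfkb1 (0.24 ± 0.17), Nod1 (-0.69 ± 0.51) and Pycard (0.20 ± 0.15) had the smallest p. Galectins and scavenger receptors split 3 and 2 among 5 tested of 8, with a median of 0.07, and Lgals2, Lgals4 and Lgals3 stood at 0.23, 0.19 and -0.21. Over all cells of all 5 cultures, the adjusted p-values of these genes from edgeR were 1.0.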

How the data were processed

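Per the labels, 1 pool of 5 hashtagged cultures gave an RNA table and a hashtag table. Both are deposited as counts: hashtag counts are whole, and the deposited RNA values are estimated counts, of which 95.6% of those above 0 were whole within 1e-06. The tools Salmon 1.4.0 with alevin, Seurat 4.3.0 and Cell Ranger 6.1.0, and the build mm10, are named per the submitters' processing notes; their roles and the annotation are not given in the sources used here. No barcode occurred more than once.

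Barcodes with at least 500 genes and at most 25% mitochondrial counts were kept. HTODemux (Seurat 5.3.0, quantile 0.99) assigned cultures; 239 barcodes with several hashtags were left out as doublets and 1054 with none were set aside; no other doublet caller was run. Cells were scaled to 10000 counts, log-transformed and clustered with scanpy 1.11.5 (2000 variable genes, 30 components, 15 neighbours, Leiden 0.8). A name needed 3 markers raised by 0.5 on the log2 scale in at least 25% of cells, with 1 or more among the top 10 genes, and no other list with more there or with a larger share raised; the last condition was added after the clusters were seen and left cluster 1 without the injury-like name. Estimated counts were summed per culture, rounded, and tested with edgeR 4.0.16 (TMM, filterByExpr, quasi-likelihood F test, Benjamini-Hochberg threshold 0.05); DESeq2 1.42.0 was an alternative. The edgeR script was tested on simulated data. CPM is the sum of a gene's counts scaled to 1000000 UMIs of the same cells. The other named genes were the 5 most alike per member, the up to 3 of each defence list with the smallest p, and every other Reg gene. Genes that lead clusters, Pyy, Lyz1, Etv1 and Il22ra1 were named outside this rule. The 4 genes, the lists and the tests were chosen with earlier results of these data known. RefSeq sequences were read for GRCm38.p6.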

Additional observations from a re-analysis of the deposited data

Results flagged for a closer look

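The 1054 filtered barcodes with no hashtag entered no comparison, yet they carried 651 Reg3a, 10509 Reg3b, 13894 Reg3g and 173 Dmbt1 counts, a signal in data outside the comparisons of cultures. Their genotype is not known. Clustered by themselves without the 4 genes, they gave 102 enterocyte-like cells with 178 CPM of Reg3a, 2048.5 CPM of Reg3b, 2190.4 CPM of Reg3g and 5.02 CPM of Dmbt1. An unnamed group of 114 cells led by Ugt2b5 and S100g, which raised 5 of 12 enterocyte markers, had 137, 2592, 3365 and 26.9 CPM of the same genes. Stem-like cells had 0 counts of Reg3a, 13.3 CPM of Reg3b, 86.9 CPM of Reg3g and 2.85 CPM of Dmbt1. Enteroendocrine-like cells had no Reg3a or Dmbt1 count. Median depth was 5509.5 UMIs, and 389 of these barcodes fell in a group with a median of 1233 UMIs. Groups of 3 and 2 cultures are too small for a test of a single culture that stands apart.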

How the results depend on the processing

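Over all cells, the log2 fold changes of the 4 genes kept their direction in 56 of 56 alternatives and passed in none. Leaving out 1 culture gave 0.25 to 0.89 for Reg3a, 0.22 to 2.59 for Reg3b, 0.34 to 1.73 for Reg3g and 0.998 to 1.39 for Dmbt1. The smallest adjusted p was 0.239, for Dmbt1 by DESeq2. The number of genes called over all cells was 6 by DESeq2, 2 without the low-count filter, 2 with MULTIseqDemux, 0 with equal cell numbers (443 at an unadjusted p under 0.05), 2 without enterocyte-like cells, a setting chosen after seeing the data, and 1 to 6 with 1 culture left out; the cause was not tested. Within classes the count of passing tests was 5 without that filter and 0 to 1 with 1 culture left out. With 1 culture left out, ranges that crossed 0 were -2.04 to 0.42 for Reg3g in goblet/Paneth-like cells, -0.14 to 1.32 for Reg3a and -0.16 to 0.95 for Dmbt1 in cluster 1, and -0.12 to 0.20 for Reg3a in enterocyte-like cells. An arm left with 1 culture is assumed to vary like the other. At Leiden 0.5 the enterocyte-like cells merged with cluster 1 into 233 cells, and levels moved to 122 CPM for Reg3a, 1321 for Reg3b, 2104 for Reg3g and 24.3 for Dmbt1; Reg3a also moved to 258 CPM with the 4 genes left out of clustering and to 232 CPM with MULTIseqDemux. The tests of defence genes by DESeq2 and with 1 culture left out, the enterocyte-like class test and the clustering of barcodes without a hashtag were added after seeing the data. With 3 against 2 cultures, 82 enterocyte-like cells and 408 Dmbt1 counts, class values of 1 culture rest on few cells. No paired analysis was possible because the labels give the cultures hashtags without replicate numbers; the numbers used here only name cultures in the order of the labels and pair none across the groups.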
